A study of Mus musculus with 11 samples.

Results

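The dopamine receptor and striatal cAMP signalling genes form a set of 9, taken from the 14667 genes listed in both deposited tables by matching gene names. They are the D1, D2 and D3 dopamine receptors (Drd1, Drd2 and Drd3), the G protein subunits Gnal and Gng7, the adenylyl cyclase Adcy5, the phosphatase regulator Ppp1r1b, the G protein regulator Rgs9 and the adenosine receptor Adora2a. The tables write the D1 receptor under its older symbol, Drd1a, and it was counted once. All 9 were listed in both tables.

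RNA came from the nucleus accumbens, the reward-related ventral part of the striatum, of 11 C57/BL6 mice, with 1 mouse per library. A virus delivered either E2F3a, an activating isoform of the cell-cycle transcription factor E2F3, or green fluorescent protein (GFP) as the control protein. Of the mice with GFP, 4 were given saline and 3 cocaine, and 4 mice with E2F3a were given saline, so every mouse had received a virus. The labels do not state the virus type, the cells it reached, the dose and timing of cocaine or the age of the mice. E2F3a with cocaine was not analysed here. The deposited values are comparison statistics, so neither levels per mouse nor library depths are known. Each standard error (SE) and 95% interval was worked back from the deposited fold change and t statistic.

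Most neurons of the striatum are medium spiny neurons, which release GABA and fall into a class that carries D1 receptors and a class that carries D2 receptors together with adenosine A2a receptors. D1 and A2a receptors raise cyclic AMP through the stimulatory G protein subunit made by Gnal, and D2 receptors lower it through inhibitory G proteins. Cyclic AMP is made mainly by adenylyl cyclase 5, and it activates protein kinase A (PKA), which phosphorylates DARPP-32, the product of Ppp1r1b. Cocaine blocks dopamine reuptake and so raises the dopamine that these receptors meet.

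In the authors' deposited table E2f3, the overexpressed gene, stood at 1.01 (log2 fold change, SE 0.20) with E2F3a, with an unadjusted p of 0.000337 and an adjusted p of 1.00. As markers of the dissected tissue, all 10 medium spiny neuron markers were measured, among them Ppp1r1b and Rgs9. Of 8 cortical neuron markers 3 were measured, and Slc17a7, the vesicular glutamate transporter of cortical neurons, had an SE of 1.67 with cocaine, 8.70 times the median of genes of like expression. All 5 blood markers were lower at an unadjusted p under 0.05 in both comparisons by the authors' moderated test. Their median log2 fold changes were -1.54 with cocaine and -0.87 with E2F3a. Of all genes, 7.51% with cocaine and 0.409% with E2F3a were lower at that p. The same 4 control mice enter both comparisons, so the 2 results are not separate evidence. Between the E2F3a and saline mice and the GFP and cocaine mice, all 5 estimates were above 0 (median 0.65). With cocaine, all 10 microglia markers had estimates below 0 (median -0.46), as did the 9 measured leukocyte markers (median -1.47). Of all genes, 46.2% were above 0 with cocaine. With E2F3a, against the same control mice, 8 of the 9 leukocyte markers were below 0 (median -0.49). The microglia markers then split into 5 above and 5 below (median -0.0009). The part of these cells in the values of the 9 genes was not tested.

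The DNA before the genes' starts differed in base composition among the receptors. RefSeq promoter sequences (GRCm38.p6, 250 bases before to 50 after a start) were used for 6 of the 9 genes, with 8 promoters in all. Gnal was left out of this part, and Ppp1r1b and Adora2a had no entry among the sequences. The stretch from 150 to 51 bases before the start is shown for the 3 receptors (for Drd1, from the first of its 2 promoters), with each CpG dinucleotide in capitals, because the number of CpG differs among them. These stretches are Drd1 at chr13:54055709-54055808 on the minus strand, Drd2 at chr9:49340253-49340352 on the plus strand and Drd3 at chr16:43762071-43762170 on the plus strand, and none overlapped an exon of GENCODE M21.
Drd1: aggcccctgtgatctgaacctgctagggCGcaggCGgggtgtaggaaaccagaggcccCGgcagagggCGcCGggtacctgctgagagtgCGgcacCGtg
Drd2: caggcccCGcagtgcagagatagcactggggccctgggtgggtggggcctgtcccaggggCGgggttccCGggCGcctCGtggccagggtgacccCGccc
Drd3: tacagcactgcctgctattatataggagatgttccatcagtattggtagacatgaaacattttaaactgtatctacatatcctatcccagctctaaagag

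The Drd3 stretch held 0 CpG and was 37.0% G or C, against 7 CpG and 69.0% for Drd1 and 6 CpG and 77.0% for Drd2. Over the whole 300-base promoter, Drd3 had 2 CpG, below the median of 7 over all 32851 RefSeq promoters, while the first Drd1 promoter and that of Drd2 had 23 each. The second Drd1 promoter had 6 CpG, also below that median, and was 59.3% G or C, against 42.0% for Drd3. The Drd3 start used by RefSeq lies within the GENCODE gene, so another start exists upstream of it. The Adcy5 promoter had the most CpG of the 8, with 44.

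Since a factor of the E2F family was overexpressed, the 8 promoters were searched on both strands for the E2F consensus in 4 spellings, TTTGGCGC, TTTCCCGC, TTTGCCGC and TTTCGCGC. None of the 8 held one, and 2.26% of all promoters did. The same spellings without their first T, a form chosen after the promoters had been seen, matched in 1 of the 8, that of Rgs9, and in 9.57% of all promoters. The Rgs9 match is shown in capitals within the 100 bases before the start (chr11:109298182-109298281, minus strand), where TTGGCGC on the strand shown overlaps TTCGCGC on the other strand.
Rgs9: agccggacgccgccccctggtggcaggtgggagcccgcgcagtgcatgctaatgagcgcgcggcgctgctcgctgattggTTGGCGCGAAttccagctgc

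The cyclic AMP response element TGACGTCA was in 0 of the 8 promoters and in 1.79% of all. The shorter core TGACG was in 1 of the 8, the second promoter of Gng7, and in 20.8% of all. These matches describe letters in these windows and say nothing of binding.

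Per length of the longest annotated transcript, DARPP-32, the G protein subunits and the cyclase were among the most abundant transcripts of the tissue, and the receptors were less abundant. The scale is the deposited mean log2 expression over all libraries, from which log2 of the longest GENCODE M21 transcript in kb was subtracted to give a mean log2 expression per kb. On this scale Ppp1r1b stood at percentile 99.5 of the 14584 genes with a length, Gng7 at 99.4, Adcy5 at 97.8 and Gnal at 97.6. Rgs9 was at percentile 95.4, Adora2a at 94.5, Drd1 at 93.8, Drd2 at 86.9 and Drd3 at 25.3. Drd4 and Drd5, the remaining dopamine receptors, were not analysed here.

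Ppp1r1b had the highest level, 8.31 on the log2 scale per kb, followed by Gng7, a G protein gamma subunit that pairs with the Gnal product, with 8.17. Adcy5 followed with 7.04 and Gnal with 6.95, then Rgs9, which speeds the switching off of G proteins, with 6.20. The receptors came last, Adora2a with 6.03, Drd1 with 5.88, Drd2 with 5.02 and Drd3 with 1.69. An SD between libraries can be implied from the SE of the E2F3a comparison if all libraries have equal weight. Neighbours closer than the larger of their 2 implied SDs were Ppp1r1b and Gng7, Adcy5 and Gnal, Rgs9 and Adora2a, and Adora2a and Drd1. With the median transcript length in place of the longest, 4 of the 9 genes kept their place in this order. Adora2a then stood at 8.22 and Gnal at 8.37, because their median annotated transcripts (569.5 and 2143 bases) are much shorter than the longest (2596 and 5736 bases). Drd2 and Drd3 were last by either length.

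**Figure D1:**
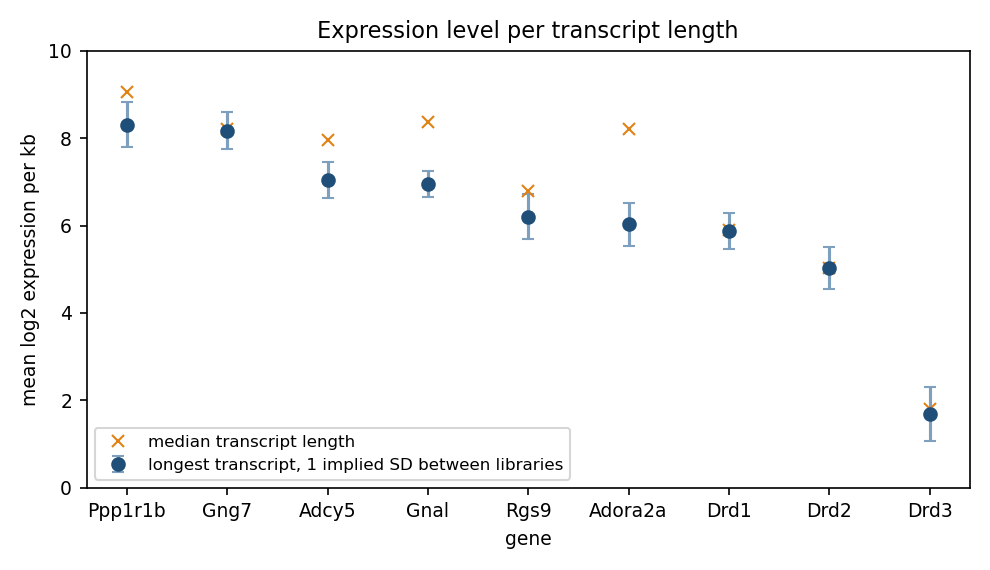
Mean log2 expression per kb of transcript (vertical axis) for the 9 genes (horizontal axis), from the authors' deposited mean expression. Circles use the longest transcript, with bars of 1 implied SD between libraries, and crosses use the median transcript length. Drd3, at 1.69, sits far below the other receptors.

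Drd1, on chromosome 13 (ENSMUSG00000021478, mm10, 54051183 to 54055705, minus strand), and Drd2, on chromosome 9 (ENSMUSG00000032259, 49340627 to 49408177, plus strand), had estimates near 0 in both comparisons. With cocaine, the authors' deposited table lists Drd1 at a log2 fold change of 0.09 (SE 0.32, 95% interval -0.60 to 0.78, unadjusted p = 0.774, adjusted p = 0.917). Drd2 stood at 0.12 with cocaine in the authors' deposited table (SE 0.36, interval -0.68 to 0.92, unadjusted p = 0.745). With E2F3a, Drd1 was listed at -0.0026 (SE 0.29, interval -0.64 to 0.64) and Drd2 at -0.03 (SE 0.34, interval -0.77 to 0.71) in the authors' deposited table. On a linear scale, the interval for Drd2 with cocaine ran from a fold of 0.625 to a fold of 1.89, so both directions remain within it. In bulk tissue, a change in the number of D1 or D2 neurons and a change in RNA per neuron could not be told apart.

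Drd3, the D3 receptor of the ventral striatum (ENSMUSG00000022705, chromosome 16, 43754026 to 43822932, plus strand), had the highest estimate of the 9 genes in both comparisons, and the widest interval. The authors' deposited table lists it at 0.73 with cocaine (SE 0.48, interval -0.33 to 1.78, unadjusted p = 0.158, adjusted p = 0.589). With E2F3a it was listed at 0.73 as well (SE 0.44, interval -0.24 to 1.70, unadjusted p = 0.125, adjusted p = 1.00) in the authors' deposited table. The same 4 control mice enter both comparisons, so the values are not separate evidence. Compared directly, the E2F3a and cocaine groups differed by 0.0070 (SE 0.48, interval -1.05 to 1.06). Neither estimate passed the test, and the mean log2 expression of Drd3 was 2.46, at percentile 17.1 of all genes.

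The G protein subunits and the cyclase also missed the threshold. Gnal, the stimulatory alpha subunit of the olfactory type that medium spiny neurons use largely in place of Gnas (ENSMUSG00000024524, chromosome 18, 67088216 to 67226792, plus strand), had the narrowest interval of the 9. The authors' deposited table gives Gnal at 0.20 with cocaine (SE 0.23, interval -0.30 to 0.70, unadjusted p = 0.404) and at 0.03 with E2F3a (SE 0.21, interval -0.43 to 0.50). Gng7 (ENSMUSG00000048240, chromosome 10, 80948624 to 81014945, minus strand) was listed at 0.28 with cocaine (SE 0.33, interval -0.44 to 1.00, unadjusted p = 0.411) and at 0.08 with E2F3a (SE 0.30) in the authors' deposited table. Adcy5, the main adenylyl cyclase of the striatum (ENSMUSG00000022840, chromosome 16, 35154877 to 35305738, plus strand), stood at 0.22 with cocaine (SE 0.31, interval -0.46 to 0.91, unadjusted p = 0.488) and -0.08 with E2F3a (SE 0.29) in the authors' deposited table. With a trend in transcript length and expression across all genes removed, the cocaine values were 0.07 for Gnal and 0.04 for Adcy5, and the E2F3a value of Adcy5 was -0.18. An exon of Mppe1 on the opposite strand overlaps 7.63% of the exonic bases of Gnal. No source used here says whether the counting used strand.

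The 2 regulators and the adenosine receptor missed the threshold as well. Ppp1r1b encodes DARPP-32, which inhibits protein phosphatase 1 once PKA has phosphorylated it (ENSMUSG00000061718, chromosome 11, 98348404 to 98357796, plus strand). It was listed at 0.08 with cocaine (SE 0.39, interval -0.77 to 0.93, unadjusted p = 0.837) and at -0.15 with E2F3a (SE 0.36, interval -0.93 to 0.63) in the authors' deposited table. The noncoding gene 1700003D09Rik overlaps 15.7% of its exonic bases on the opposite strand. Rgs9 (ENSMUSG00000020599, chromosome 11, 109225355 to 109298129, minus strand) stood at 0.09 with cocaine (SE 0.39, unadjusted p = 0.82) and -0.07 with E2F3a (SE 0.36, interval -0.87 to 0.73) in the authors' deposited table. Its promoter is the one with the shortened E2F match shown above. Adora2a, the adenosine receptor of D2 neurons (ENSMUSG00000020178, chromosome 10, 75316877 to 75334784, plus strand), was at 0.0015 with cocaine (SE 0.38, interval -0.83 to 0.84) and -0.20 with E2F3a (SE 0.35, interval -0.97 to 0.57, unadjusted p = 0.576) in the authors' deposited table.

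By the authors' moderated test 0 of the 9 genes passed an adjusted p of 0.05 with cocaine, and 0 had an unadjusted p under 0.05. Among all genes of the authors' deposited table, 0% passed the adjusted threshold with cocaine, and 9.25% passed the unadjusted one, 1.74% being higher and 7.51% lower. With E2F3a the count was again 0 of 9 by either threshold, against 0% and 0.955% of all genes in the authors' deposited table (0.545% higher and 0.409% lower). All 9 estimates were above 0 with cocaine (median 0.12), where 46.2% of all genes were and the median of all was -0.02. Other markers of medium spiny neurons, D1 neurons and D2 neurons leaned the same way, with 14 of 17 above 0 with cocaine (median 0.16). With E2F3a 3 of the 9 were above 0 and 6 below (median -0.03), against 52.5% above 0 and a median of 0.0077 over all genes. These counts have no test, since expression of the 9 genes may vary together between mice and the tables hold no values per mouse.

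One more contrast, the E2F3a and saline mice against the GFP and cocaine mice, follows from the difference of the 2 deposited log2 fold changes, in which the shared GFP and saline mice cancel. Of the 9 differences 8 were below 0 and 1 above, from -0.30 (Adcy5, SE 0.31, unadjusted p = 0.358) to 0.0070 (Drd3), and 57.7% of all genes were above 0. Of the 17 other markers of these neurons 16 were below 0. The same GFP and cocaine mice enter the cocaine comparison above, so these counts are not separate evidence from the counts given there. By a t test of each difference with an approximate SE, 0 of 9 passed an adjusted p of 0.05 (smallest 0.939) and 0 an unadjusted p of 0.05. Over all genes 0% and 3.95% passed, with 3.51% higher and 0.443% lower by the unadjusted p.

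**Figure D2:**
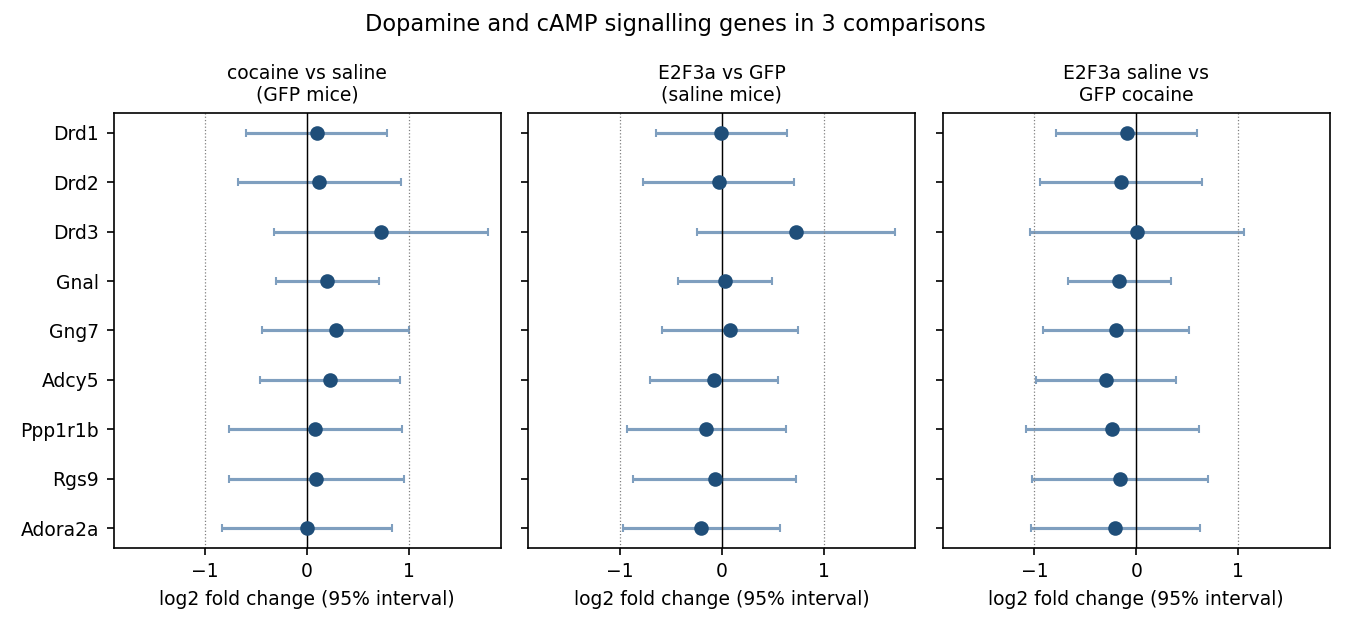
Log2 fold change (horizontal axis) of the 9 genes in 3 comparisons, with 95% intervals implied by the authors' deposited statistics. Every interval includes 0, and dotted lines mark a log2 fold change of 1 in either direction. In the cocaine and E2F3a comparisons with GFP and saline mice, 8 of the 9 intervals lie between the dotted lines, Drd3 being the exception.

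How large a change would reach an unadjusted p of 0.05, a looser mark than the adjusted p used for calls, differed among the genes. With cocaine, the fold that would have given an unadjusted p of 0.05 at the observed SE ran from 1.42 for Gnal to 2.07 for Drd3. With E2F3a it ran from 1.38 for Gnal to 1.96 for Drd3. The intervals of 8 of the 9 genes stayed within a log2 fold change of 1 in either direction in each of these comparisons. In the contrast of E2F3a and saline with GFP and cocaine, 5 of the 9 did.

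The SEs of these genes were wide for their level. Each SE was divided by the median SE of the genes nearest in mean expression (200 on either side, fewer at the top of the range). With cocaine the ratio was 2.92 for Drd2, 2.88 for Adora2a, 2.62 for Rgs9 and 2.44 for Ppp1r1b. It was 2.31 for Drd3, 2.14 for Drd1, 2.03 for Gng7, 1.97 for Adcy5 and 1.45 for Gnal. The ratio exceeded 2 for 7 of the 9 genes, for 8.13% of all genes, and for 5.69% of the 2986 genes at or above the level of Drd2. With the SEs of the E2F3a comparison the ratios ran from 1.44 for Gnal to 2.92 for Drd2. Both comparisons take their spread from one fit over the same mice, so the second set repeats the first.

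Wide SEs were not particular to the 9 genes. Among 17 other markers of medium spiny neurons, D1 neurons and D2 neurons the median ratio was 2.18, and it exceeded 2 for 10. The examples that follow were chosen after their values were seen. Tac1, the substance P precursor of D1 neurons, had a ratio of 3.45, Gpr6, an orphan receptor of D2 neurons, 3.04, Pde10a, the striatal phosphodiesterase, 2.71, and Penk, the enkephalin precursor of D2 neurons, 2.18. Of the 17 markers, those with a ratio below 2 included the GABA-synthesizing enzymes Gad1 (0.77) and Gad2 (0.92). The others below 2 were Sp9 (1.33), Grik3 (1.57), Meis2 (1.57), Bcl11b (1.64) and Isl1 (1.73). The median was 1.27 for 7 astrocyte markers, 1.56 for 6 oligodendrocyte markers and 2.92 for 9 leukocyte markers. It was 4.67 for 3 cortical neuron markers, 1.65 for 5 blood markers, 1.40 for 10 microglia markers and 1.19 for 6 endothelial markers. Whether the same mice were high for all of these genes cannot be told from statistics of comparisons, and no cause of the wide SEs was tested.

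**Figure D3:**
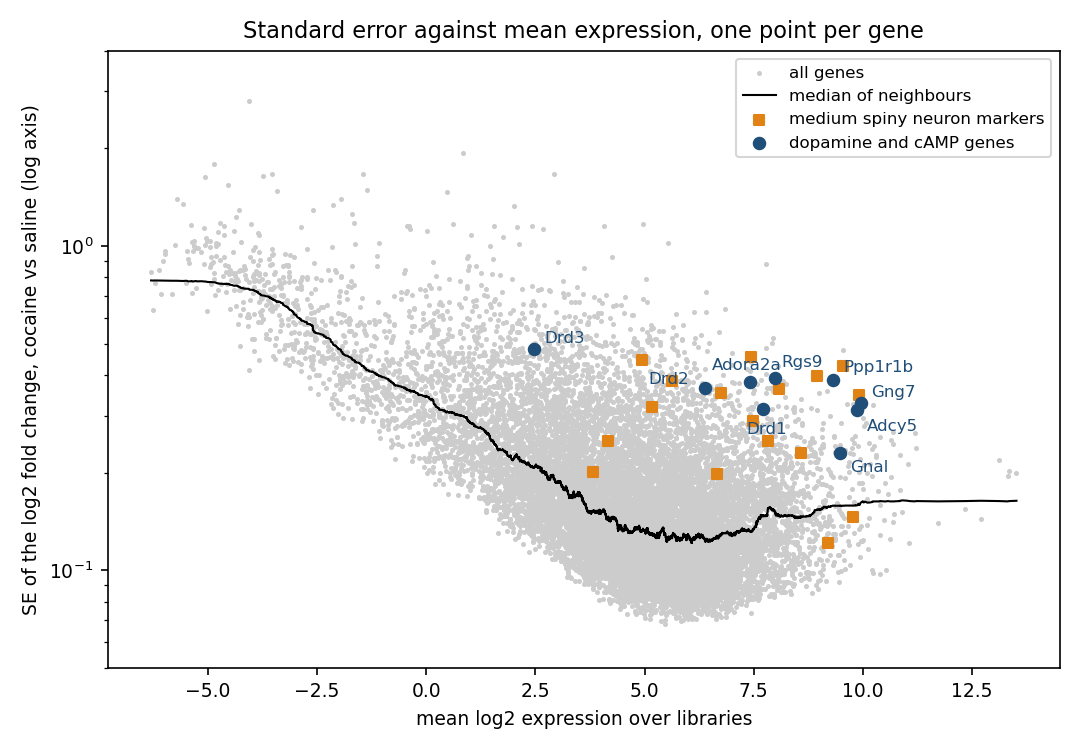
SE of the log2 fold change for cocaine against saline (vertical axis, log scale) by mean log2 expression (horizontal axis), 1 point per gene, implied by the authors' deposited statistics. The black line is the median of neighbouring genes. The 9 genes (circles) lie above the line, by 1.45 times for Gnal to 2.92 times for Drd2, as do most other medium spiny neuron markers (squares).

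The rest of the pathway was described with 10 lists of 94 genes, of which 83 genes in 9 lists were measured. By the authors' moderated test 0 of the 83 passed an adjusted p of 0.05 in either comparison. With cocaine 1 was higher and 4 were lower at an unadjusted p under 0.05, or 6.02% beside 9.25% of all genes. With E2F3a 0 of the 83 did, beside 0.955% of all genes. The median log2 fold change over the 83 was 0.04 with cocaine and -0.02 with E2F3a.

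Upstream of the cyclases, Gnai2 and Gnai3, 2 of the inhibitory alpha subunits, stood at -0.32 (SE 0.13, unadjusted p = 0.0282) and -0.34 (SE 0.14, unadjusted p = 0.0332) with cocaine in the authors' deposited table. Of the 5 measured alpha subunits of the inhibitory type, those 2 were below 0 and the other 3 above. Gnaz was among the 3, at 0.14 (SE 0.10), and the median of the 5 was 0.13. The microglia markers (median -0.46) and leukocyte markers (median -1.47) lay lower in the same comparison, and their part in these values was not tested. Among 10 beta and gamma subunits, Gng5 was at -0.54 (SE 0.19, unadjusted p = 0.0178) with cocaine in the authors' deposited table, and Gnb4 at 0.22 (SE 0.11). Gng12 was at 0.26 (SE 0.13, unadjusted p = 0.0739) with E2F3a in the authors' deposited table. The 9 genes for Gs, its chaperone Ric8b and other cyclases had a median of 0.19 with cocaine, and 0 had an unadjusted p under 0.05. From that list, the authors' deposited table has the cyclases Adcy9 at 0.54 (SE 0.33) and Adcy7 at -0.42 (SE 0.26) with cocaine, and Adcy6 at 0.35 (SE 0.27) with E2F3a.

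Among 13 genes for RGS proteins and their partners, Rgs17, a regulator of inhibitory G proteins, was at 0.44 with cocaine (SE 0.15, unadjusted p = 0.0153) in the authors' deposited table. It was the 1 pathway gene that was higher with cocaine at an unadjusted p under 0.05. Rgs10 was at -0.35 (SE 0.21) with cocaine and Rgs7, which like Rgs9 pairs with Gnb5, at -0.17 (SE 0.08, unadjusted p = 0.0566) with E2F3a in the authors' deposited table. Of other receptors, Adora2b, an adenosine receptor with a mean log2 expression of 1.15, stood at -0.65 with cocaine (SE 0.22, unadjusted p = 0.0116) in the authors' deposited table. The cannabinoid receptor Cnr1 was at -0.31 (SE 0.23) with E2F3a, and the adenosine A1 receptor Adora1 at 0.12 (SE 0.14) with cocaine, in the authors' deposited table. In the contrast of E2F3a and saline with GFP and cocaine, 3 of the 83 pathway genes had an unadjusted p under 0.05, or 3.61% beside 3.95% of all genes. None passed after adjustment over all genes, where the smallest adjusted p was 0.935.

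Downstream of cyclic AMP, the 9 measured PKA genes had a median of 0.13 with cocaine and 0.0084 with E2F3a, with 0 at an unadjusted p under 0.05 in either. Prkacb, a catalytic subunit, was at 0.26 (SE 0.13, unadjusted p = 0.0722) with cocaine in the authors' deposited table, the regulatory subunit Prkar2a at 0.25 (SE 0.13) and the anchoring protein Akap5 at 0.42 (SE 0.23). The 15 kinases, phosphatases and relatives of DARPP-32 had a median of -0.03 with cocaine and -0.08 with E2F3a, again with 0 at an unadjusted p under 0.05. Ppp1ca, a catalytic subunit of the phosphatase that DARPP-32 inhibits, was at -0.27 (SE 0.15), Ppp2cb at -0.12 (SE 0.12) and Cdk5r1, an activator of the kinase Cdk5, at 0.19 (SE 0.16) with cocaine in the authors' deposited table. Among 10 readers of the cyclic AMP signal, the authors' deposited table gives Atf1 at -0.27 (SE 0.14), Rapgef2 at 0.24 (SE 0.14) and Rapgef3 at 0.26 (SE 0.18) with cocaine. None of the 10 had an unadjusted p under 0.05 in either comparison.

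Of 7 genes for making, packaging and clearing dopamine, 6 were measured and 0 had an unadjusted p under 0.05. Th, the rate-limiting enzyme of dopamine synthesis, had a mean log2 expression of 3.02 and stood at -0.16 (SE 0.23) with cocaine and -0.42 (SE 0.22, unadjusted p = 0.0761) with E2F3a in the authors' deposited table. Ddc, the next enzyme, was at 0.34 (SE 0.43) with cocaine and Maob, which breaks dopamine down, at 0.17 (SE 0.14) with E2F3a in the authors' deposited table.

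**Figure D4:**
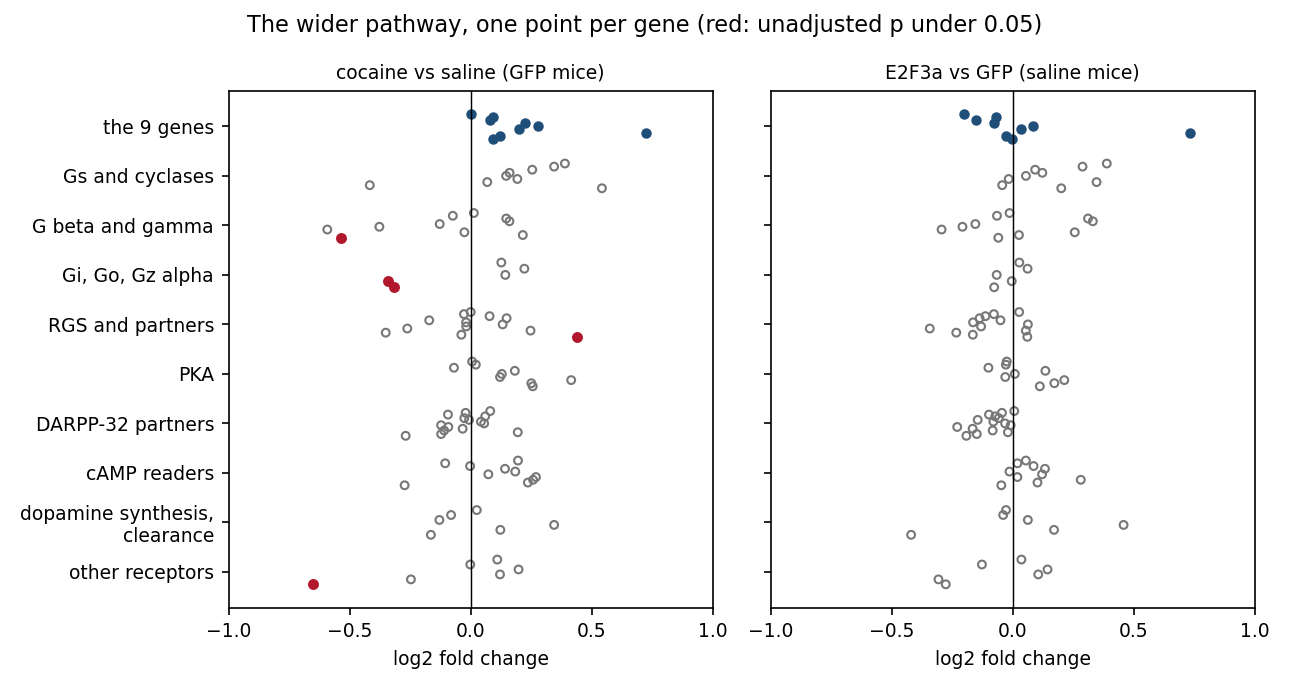
Log2 fold change (horizontal axis) of the 9 genes and of 83 further pathway genes by list (vertical axis), from the authors' deposited tables, with 1 point per gene. Red points have an unadjusted p under 0.05: 5 of the 83 genes with cocaine (6.02%, beside 9.25% of all genes) and 0 with E2F3a (beside 0.955%).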

How the data were processed

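Single-mouse libraries of poly-A RNA were made with the TruSeq v2 kit, per the labels' protocols. The tools listed, without roles, in the submitters' processing notes are HTSeq 0.6.0, TopHat2 2.0.9 and Bowtie2 2.1.0, with the mm10 build. No source used here gives the normalization, the filter or the test program. The authors deposited 2 tables of the same 14667 genes. Per the file headers, each gene has its log2 fold change, its mean log2 expression over libraries, scores (a t statistic and log odds) and a p-value before and after adjustment. These headers match limma output.

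The SE was obtained as log2 fold change over t, with intervals on the 11.29 degrees of freedom that the deposited p-values imply. The contrast of E2F3a and saline with GFP and cocaine took the variance of the shared control as 1 of 2 equal parts of the squared SE of the E2F3a comparison, with Benjamini-Hochberg adjustment over all genes. No values per library were used, so no likeness between genes was computed. The 9 genes and all lists were chosen with earlier results of these data known. Named genes are the 9, E2f3 and, from each list, up to 3 with the smallest unadjusted p in either comparison; marker genes are named only where a result turns on them. Transcript lengths came from GENCODE M21, the same assembly as mm10 (14584 genes matched). The software was Python 3.11.15 with scipy 1.17.1, numpy 2.4.6, pandas 2.3.3 and matplotlib 3.10.9. Replicates are separate mice. Alternatives were other thresholds, an expression floor at the 25th percentile, centring, removal of a trend in length and expression, and another share for the control variance.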

Additional observations from a re-analysis of the deposited data

How the results depend on the processing

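No paired analysis was possible because the tables hold no values per library; for the same reason no replicate could be left out. The number of the 9 genes called stayed at 0 in all 3 contrasts under every alternative run, including an unadjusted p under 0.05. An adjusted p under 0.1 could not have called any gene. The smallest adjusted p over all genes was 0.533, by the authors' moderated test with cocaine. Other thresholds, the expression floor and the other share for the control variance leave a fold change as it is, so only centring and removal of the trend could move it. Of the 54 values recomputed in those ways, 49 kept their sign and 5 changed it. Without the trend in transcript length and expression, with E2F3a, Drd1 was at 0.0036, Drd2 at 0.011 and Gnal at -0.039, and Drd3 in the contrast of E2F3a with cocaine was at -0.16. Centred on the median of all genes, Drd3 in that contrast was at -0.024. Drd3 lies below the expression floor and has no value there. All 9 estimates stayed above 0 with cocaine under centring (lowest 0.02) and with the trend removed (lowest 0.04), but their sizes moved. Without the trend, Drd3 with cocaine went from 0.73 to 0.91, Adcy5 from 0.22 to 0.04 and Gnal from 0.20 to 0.07. Drd2 with cocaine went from 0.12 to 0.21, Ppp1r1b from 0.08 to 0.13 and Adora2a from 0.0015 to 0.07. Adcy5 with E2F3a went from -0.08 to -0.18. Of the 83 pathway genes 5 were called with cocaine at an unadjusted p under 0.05, or 6.02% beside 9.25% of all genes. In the order of levels, 4 of the 9 genes kept their place with the median transcript length and 3 with no length correction, a change set by the lengths alone. The median SE ratio of the 9 genes, 2.31, was chosen after seeing the data, and was 2.32 with narrower windows of genes, 2.27 with wider ones and 2.36 with the SEs of the E2F3a comparison. The depth of each library is unknown.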
